A study of Mus musculus with 6 samples.

Results

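The genes described here make, carry and sense retinoic acid, the active form of vitamin A. They were the probes whose symbol in the platform's probe annotation is Aldh1a2, Aldh1a3, Crabp1, Crabp2, Rbp4, Rara, Rarb, Rarg or Rxra, which gave 18 probes of the 21766 on the array, for 9 of 15063 genes named alone by at least 1 probe. The measurements came from 6 2-colour oligonucleotide arrays, each of which set RNA from the cortex of 1 Mest-mutant mouse embryo at stage E12.5 against RNA from 1 wild-type cortex. Mest, also called Peg1, is imprinted and expressed from the copy of the father, and the mutants had a father carrying an allele with LacZ in place of exons 3 to 8 and a wild-type mother. The allele is present in every cell, so that tissue around the cortex carries it too. Mutants 3, 5 and 6 were labelled with Cy5 and mutants 1, 4 and 7 with Cy3. Wild-type cortices 2, 8 and 9 each served for 2 mutants, once per dye. The array of mutant 3 is labelled wild type 1 and was read as wild type 2.

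Retinoic acid is made from retinol in 2 oxidation steps, and enzymes of the aldehyde dehydrogenase 1A family carry out the last of them. The acid enters the nucleus and binds receptors of the RAR family, which sit on DNA as pairs with RXR receptors and switch target genes such as Rarb itself. In the embryonic forebrain the enzymes lie mainly in meninges, nasal mesenchyme and parts of the eye and ventral telencephalon rather than in the cortical wall, and CYP26 enzymes break the acid down. The comparison asks whether any of these genes differed between mutant and wild-type cortex.

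The RARs bind direct repeats of a short half-site. The promoter windows of Rarb and Cyp26a1 are shown because Rarb is a receptor and a target at once and because these were the only windows of the pathway with such a repeat at a spacing of 5 bases. The half-sites searched were AGGTCA as the consensus together with the variants GGTTCA as well as AGTTCA and also GGGTCA, in any pair, on both strands, separated by 1, 2 or 5 bases, in windows of 250 bases before to 50 bases after a RefSeq start site (assembly GRCm38.p6). The Rarb window lies at chr14:16575427-16575726 on the minus strand and the Cyp26a1 window at chr19:37697558-37697857 on the plus strand. Each is written 5′ to 3′ on the strand of its gene, with the repeat in capitals:
Rarb: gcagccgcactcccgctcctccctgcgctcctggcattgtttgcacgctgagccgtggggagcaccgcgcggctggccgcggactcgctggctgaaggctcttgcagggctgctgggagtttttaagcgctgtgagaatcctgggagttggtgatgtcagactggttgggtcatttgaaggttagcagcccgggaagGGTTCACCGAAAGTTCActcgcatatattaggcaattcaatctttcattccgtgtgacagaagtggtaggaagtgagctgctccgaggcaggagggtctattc
Cyp26a1: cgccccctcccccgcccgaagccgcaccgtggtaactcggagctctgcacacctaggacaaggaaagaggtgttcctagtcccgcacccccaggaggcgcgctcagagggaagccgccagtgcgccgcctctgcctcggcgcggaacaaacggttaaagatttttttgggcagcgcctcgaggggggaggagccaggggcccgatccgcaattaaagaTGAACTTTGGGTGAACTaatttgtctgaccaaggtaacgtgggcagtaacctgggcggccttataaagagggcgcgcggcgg
The Rarb repeat reads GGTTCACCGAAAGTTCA on the strand of the gene, 53 to 37 bases before the start site, and that of Cyp26a1 reads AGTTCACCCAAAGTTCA on the opposite strand, 32 to 16 bases before it. The spacing of 5 was found in 0.0974% of all 32851 windows, in 1 of 13 windows of 7 of the genes described here and in 1 of 59 windows of the other pathway genes. The spacings of 1 and 2 were found in 0.222% and 0.268% of all windows and in none of the 13. The windows of Aldh1a3 and Crabp2 were not used here.

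A value is the log2 of the level in the mutant over that in wild type, after each array was centred on its median. Which way the deposited ratio runs was taken from Mest, whose sign followed the dye labels, so that Mest is no independent check. Turned to this direction, Mest lay at -1.36, -1.78 and -1.39 in mutants 3, 5 and 6 and at -1.50, -2.07 and -1.44 in mutants 1, 4 and 7. An array gave values for 16422 to 19564 probes, and 17476 with values on at least 4 arrays, 2 per dye orientation, were fitted. No signal level was used, so the arrays give no order of level between genes and do not show whether a gene is expressed. Tested probes were at hand for 8 defining genes of cortex. Of the 18 probes, 16 were tested, covering 8 of the 9 genes. Rbp4, which encodes the carrier of retinol in blood, had a value on the array of mutant 4 only (2.22), which is the log2 of a ratio of 7 and 1 before centring. A probe of Rarg, CG_Mm_3007103_1, had 4 values between -0.23 and 0.15, of which 1 came from a Cy5 array.

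None of the 16 tested probes passed an adjusted p of 0.05 (limma, Benjamini-Hochberg over all 17476 probes), against 0% of all probes. None had an unadjusted p under 0.05 in this fit either, against 3.93% of all probes, though some did under the alternatives given below. The adjusted p of the 16 ran from 0.90 to 0.99. Mest, at a fitted ratio of -1.59, had the smallest p of all tested probes (limma, unadjusted p = 3.4e-05). Its adjusted p was 0.60, so the adjusted threshold did not call the targeted gene either. The fitted ratios lay above 0 for 11 of the 16, against 51.3% of all probes, and their median was 0.033 against 0.0069 over all probes. The median size of the ratio was 0.11 with a median standard error of 0.12, and the medians over all probes were 0.14 and 0.16. The 95% confidence interval lay within a log2 ratio of 1 in either direction for 14 of the 16 probes, all except Rara CG_Mm_3007060_1 and CG_Mm_3007063_1. For 11 it lay within 0.5. Exact sign-flip permutation tests over the 6 arrays, two-sided and not adjusted, were run for the 14 probes with 6 values. The smallest p that 6 arrays allow, 0.0313, was reached by Crabp2, Rara CG_Mm_3007062_1 and Rxra, and over 3 independent wild types the smallest would be 0.25. In RNA of whole cortex a smaller number of cells of a type and less RNA per cell cannot be told apart.

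**Figure D1:**
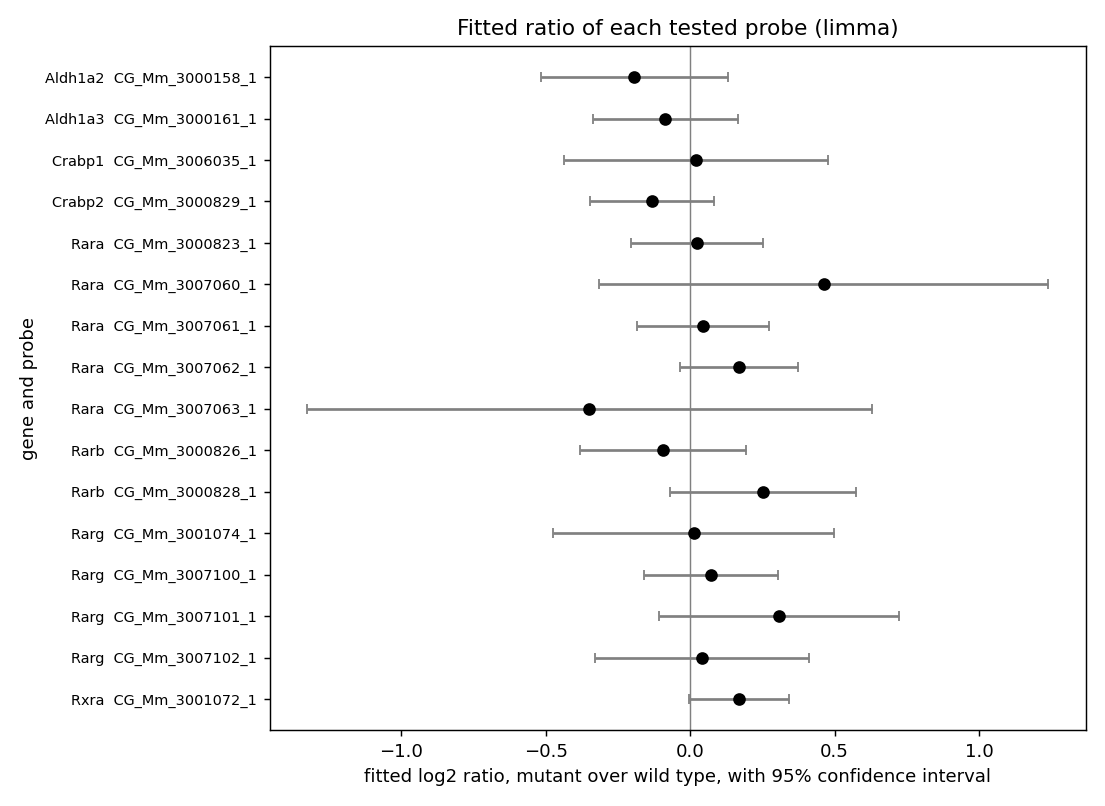
Fitted log2 ratio of mutant over wild type (horizontal axis) for the 16 tested probes (vertical axis), with bars for the 95% confidence interval of the limma fit. Every interval includes 0, that of Rxra only just, and those of Rara CG_Mm_3007060_1 and CG_Mm_3007063_1 are the widest.

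The 2 enzymes lay slightly below 0 without passing the test. Aldh1a2, the main enzyme of retinoic acid synthesis in meninges and mesenchyme (chromosome 9, 71215789 to 71296243), had -0.46, -0.062 and -0.064 in mutants 3, 5 and 6 and -0.12, 0.059 and -0.51 in mutants 1, 4 and 7. Mutants 3 and 7 were lowest, and 5 of 6 arrays lay below 0, with the dye orientations overlapping. The fitted ratio was -0.19 (standard error 0.13), with an interval from -0.52 to 0.13, which covers levels between 0.699 and 1.10 times that of wild type (limma, adjusted p = 0.90). The ratio was -0.12 without mutant 3 and -0.098 without mutant 7. Averaged over the 2 mutants compared with each wild type, it was -0.29 for wild type 2, -0.0018 for wild type 8 and -0.29 for wild type 9. Aldh1a3, an enzyme of the same step that is known from the eye and the nasal region (chromosome 7, 66390892 to 66427477), had 0.14, -0.15 and -0.17 in the Cy5 arrays and 0.15, -0.31 and -0.18 in the Cy3 arrays. Both arrays of wild type 2 lay above 0 and the 4 others below. Its fitted ratio was -0.086 (standard error 0.10), or -0.038 without mutant 4 and -0.13 without mutant 1. Both enzymes turned to positive values, 0.059 and 0.17 with arrays not centred and 0.065 and 0.17 when the Gapdh control spots set the centre, where all probes shift by 0.25 and 0.26 on average.

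Of the binding proteins, Crabp2 was below 0 in every mutant and Crabp1 varied more between embryos. Crabp2, which hands retinoic acid to the receptors in the nucleus (chromosome 3, 87948693 to 87953372), had -0.14, -0.36 and -0.064 in mutants 3, 5 and 6 and -0.082, -0.0070 and -0.14 in mutants 1, 4 and 7 (SD 0.12, n = 6). The sign was the same on all 6 arrays, as for 5.59% of the 13531 tested probes with 6 values, but mutant 4 lay next to 0. The fitted ratio was -0.13 (standard error 0.085), with an interval from -0.35 to 0.083 (limma, adjusted p = 0.90, lower on 6 of 6 arrays). It was 0.12 with arrays not centred and 0.13 with Gapdh centring. Crabp1, which holds retinoic acid in the cytoplasm (chromosome 9, 54764748 to 54773110), had -0.26, -0.33 and 0.36 in the Cy5 arrays and -0.13, -0.27 and 0.75 in the Cy3 arrays. Both mutants compared with wild type 9 lay above 0, and the 4 others lay below 0. The means per wild type were -0.19, -0.30 and 0.55 for wild types 2, 8 and 9, and the fitted ratio was 0.020 (standard error 0.18), or -0.090 without mutant 7 and -0.011 without mutant 6. Mutants 6 and 7 share that wild-type cortex, so that a lower level in wild type 9 and a higher level in both mutants cannot be told apart.

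Among the receptors, Rxra had the most even ratio. Rxra encodes the partner that RARs need to bind DNA (chromosome 2, 27676445 to 27763319). It had 0.18, 0.20 and 0.21 in mutants 3, 5 and 6 and 0.14, 0.18 and 0.11 in mutants 1, 4 and 7 (SD 0.039, n = 6). All arrays lay above 0 and the dye orientations overlapped, and the means per wild type were 0.16, 0.19 and 0.16. The fitted ratio was 0.17 (standard error 0.069), a level 1.13 times that of wild type with an interval from 0.998 to 1.27 (limma, unadjusted p = 0.053, adjusted p = 0.90, higher on 6 of 6 arrays). The standard error rests on a variance moderated towards that of all tested probes, while the residual SD of this probe alone was 0.029. The size of the fitted ratio depends on the centring. It was 0.42 with arrays not centred and 0.43 with Gapdh centring (limma, unadjusted p = 0.013, adjusted p = 0.32). Both lie above 0.34, the upper end of the interval on the log2 scale, and without centring mutant 7 lay below 0. These settings shift all probes by 0.25 and 0.26 on average, so the p-value with Gapdh centring includes this shift. The range over the centred arrays was 0.098, the narrowest of the 14 probes described here with 6 values. This width was not exceeded by 12 of 13531 tested probes with 6 values, Rxra among them (0.0887%), where the median range was 0.83. The cut is the range of Rxra itself, so this share is a description and not a test. Of these 12, 8 lay above 0 on all arrays, 2 below and 2 on both sides. Above 0 on all 6 arrays were 2.52% of the probes with 6 values, and 2 of the 14 such probes described here.

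**Figure D2:**
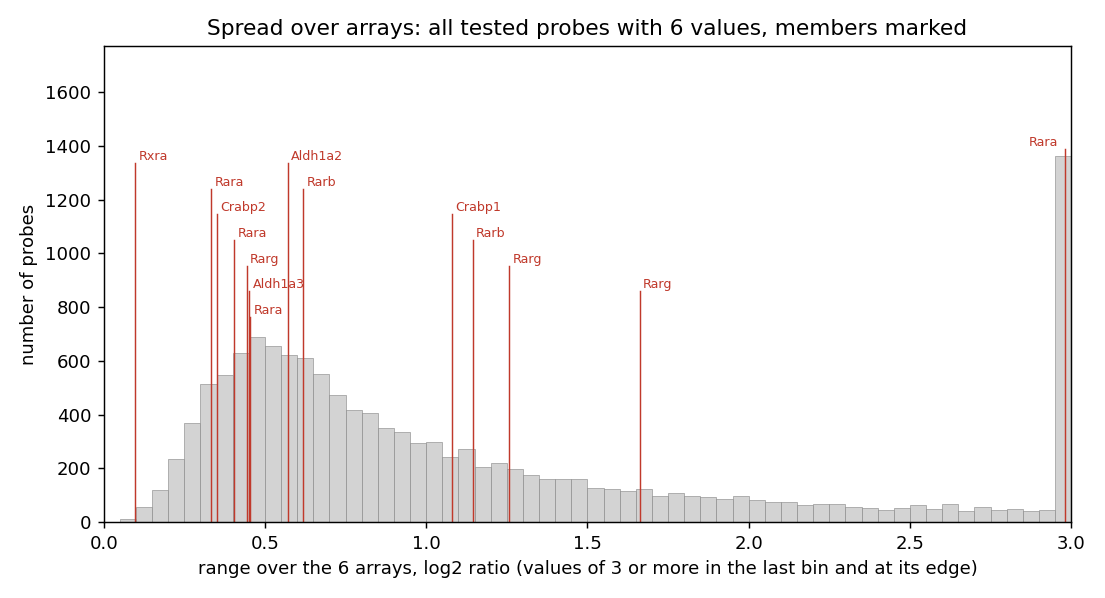
Number of tested probes with 6 values (vertical axis) by the range of the log2 ratio over the 6 arrays (horizontal axis), with red lines at the 14 probes of the retinoic acid genes with 6 values. Rxra lies at the lower edge at 0.098, the median of all such probes is 0.83, and Rara CG_Mm_3007063_1 is drawn in the last bin.

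Rara, the receptor with the broadest expression in the embryo (chromosome 11, 98927800 to 98974942), was measured by 5 tested probes, each paired by the annotation with a sequence record of its own. Fitted ratios were 0.024 (CG_Mm_3000823_1), 0.046 (CG_Mm_3007061_1), 0.17 (CG_Mm_3007062_1), 0.46 (CG_Mm_3007060_1) and -0.35 (CG_Mm_3007063_1). Of these, 3 probes had small spread. CG_Mm_3000823_1 ran from -0.22 to 0.23 and CG_Mm_3007061_1 from -0.21 to 0.19, and with single arrays left out their ratios lay between -0.00023 and 0.057 and between 0.010 and 0.11. CG_Mm_3007062_1 had 0.25, 0.36 and 0.10 in the Cy5 arrays and 0.22, 0.061 and 0.022 in the Cy3 arrays, above 0 on all 6, with a standard error of 0.081 (limma, adjusted p = 0.90). The remaining 2 probes varied widely. CG_Mm_3007060_1 had 1.93 and 0.91 in mutants 3 and 6 against -0.70 and -0.23 in mutants 1 and 4 and no value for mutants 5 and 7, so that its fit rests on 4 arrays, with 0.22 without mutant 3 and 0.79 without mutant 6. CG_Mm_3007063_1 had 0.42, 0.86 and -0.28 in the Cy5 arrays and -0.24, -0.28 and -2.58 in the Cy3 arrays, and the last of these, in mutant 7, stood alone: without mutant 7 its ratio was -0.030. In mutant 7 the 3 steady Rara probes lay between -0.11 and 0.036. Probes of this gene differed from each other by up to 2.62 on an array, and which transcripts each detects was not examined here.

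Rarb, a receptor and a known target of retinoic acid (chromosome 14, 16430839 to 17082331), gave no common direction in its 2 probes. Its promoter window shown above, which starts at 16575427, belongs to a start site inside this locus. Whether either probe detects transcripts from that start site was not examined. CG_Mm_3000826_1 had 0.14, -0.034 and -0.24 in mutants 3, 5 and 6 and -0.019, 0.080 and -0.48 in mutants 1, 4 and 7, with a fitted ratio of -0.093 and a standard error of 0.11, or -0.15 without mutant 4 and -0.029 without mutant 7. CG_Mm_3000828_1 had 0.42, 0.98 and 0.25 in the Cy5 arrays against -0.17, 0.088 and -0.060 in the Cy3 arrays. The orientations of this probe did not overlap, its fitted ratio was 0.25 (standard error 0.13), and it was 0.14 without mutant 5 and -0.046 in the Cy3 arrays alone. Rarg, the receptor of mesenchyme and skin in the embryo (chromosome 15, 102234938 to 102257522), lay above 0 in all 4 tested probes, at 0.012, 0.071, 0.31 and 0.042. CG_Mm_3007100_1 was the steadiest of them, with values from -0.18 to 0.27 and a standard error of 0.092, and its ratio was 0.017 without mutant 5 and 0.12 without mutant 6. CG_Mm_3007101_1 had 1.05, 0.95 and 0.49 in the Cy5 arrays against -0.17, -0.62 and 0.15 in the Cy3 arrays, with 0.18 without mutant 7 and -0.21 in the Cy3 arrays alone. CG_Mm_3001074_1 ran from -0.77 to 0.48, and its sign turned with scaling (-0.036), with quantile normalization (-0.052) and without mutant 3, 4 or 7. CG_Mm_3007102_1, without a value on the array of mutant 5, ran from -0.48 to 0.27 and turned without mutant 6 or 1.

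**Figure D3:**
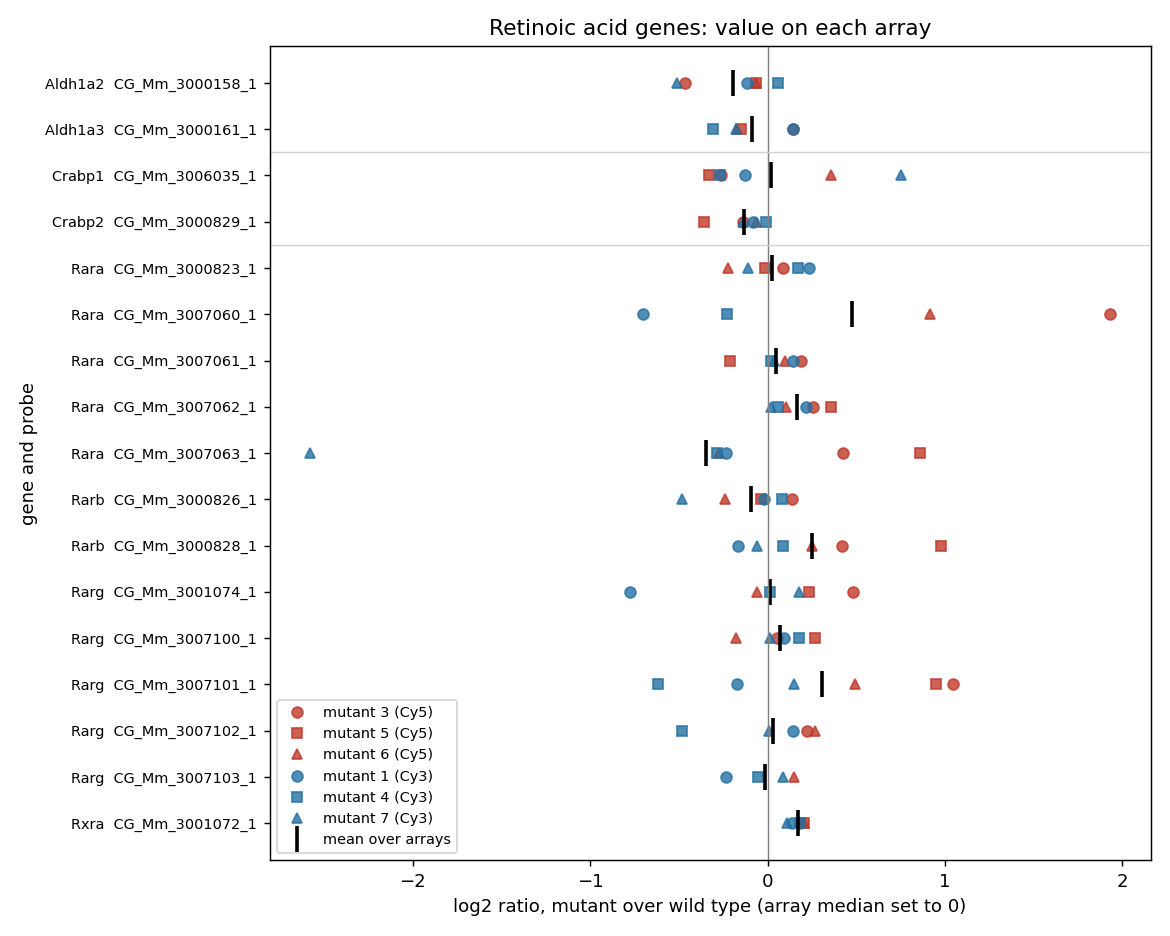
Log2 ratio of mutant over wild type on each array (horizontal axis) for the 17 probes with values on at least 4 arrays (vertical axis), in red with the mutant in Cy5 and in blue in Cy3. The same marker shape in both colours stands for the same wild-type cortex, and black bars mark the mean over arrays. Points of Rxra lie between 0.11 and 0.21, while those of Rara CG_Mm_3007063_1 reach from -2.58 to 0.86.

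Among the receptors together, 10 of 12 receptor probes lay above 0, against 51.3% of all probes, with a median of 0.059. They stand for 4 genes, so the 12 are not independent. The group's median lay above 0 on every array, at 0.24, 0.25 and 0.10 in mutants 3, 5 and 6 and at 0.038, 0.041 and 0.016 in mutants 1, 4 and 7. Its mean, which the probes of wide spread move more, was 0.45, 0.36 and 0.11 in the Cy5 arrays and -0.092, -0.068 and -0.25 in the Cy3 arrays, where mutant 7 includes the -2.58 of Rara CG_Mm_3007063_1. Mean and median thus differed in sign on the Cy3 arrays, and both were higher on each Cy5 array than on any Cy3 array. Non-overlapping orientations were found in 4 of the 16 tested probes, all of them receptors with the Cy5 arrays above the Cy3 arrays, against 29.7% of all tested probes without overlap and 14.5% in that direction. The dye term had an unadjusted p under 0.05 for 3 of the 16 probes, against 20% of all probes, and passed the adjusted threshold for none, against 0.269% (limma). These 3 were Rara CG_Mm_3007060_1, Rarb CG_Mm_3000828_1 and Rarg CG_Mm_3007101_1, with adjusted p of 0.18, 0.20 and 0.15 for the dye term. The probe pairs of 1 gene had root mean square differences over arrays between 0.18 and 1.20 (17 pairs, median 0.56), and pairs of different genes between 0.11 and 1.49 (103 pairs, median 0.44).

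The wider pathway was described from lists of genes. No probe of these lists passed the adjusted threshold (limma, against 0% of all probes), and 1 of the 42 tested probes that are not among the 9 genes had an unadjusted p under 0.05, Lrat, against 3.93%. In the list of retinol uptake, storage and oxidation 15 of 20 tested probes lay below 0, against 48.7% of all probes, with a median of -0.17, and the median was 0.080 with arrays not centred and 0.086 with Gapdh centring. Lrat, the enzyme that stores retinol as its ester, had -0.11, -0.46 and -0.85 in mutants 3, 5 and 6 and -0.18, -0.28 and -1.18 in mutants 1, 4 and 7. It lay below 0 on all 6 arrays, lowest in the mutants compared with wild type 9, with a fitted ratio of -0.51 and a standard error of 0.18 (limma, unadjusted p = 0.035, adjusted p = 0.90). The ratio was -0.26 with arrays not centred (limma, unadjusted p = 0.47), where mutants 3, 5 and 4 lay above 0, and -0.25 with Gapdh centring (limma, unadjusted p = 0.27). Rdh5, a retinol dehydrogenase, ran from -0.31 to -0.098 with a fitted ratio of -0.19, and Aldh1a7, a relative of the aldehyde dehydrogenases above, ran from -0.30 to -0.047 with -0.19. Both were below 0 on 6 of 6 arrays, and both lay between 0.058 and 0.072 with arrays not centred or centred on Gapdh. Ttr, which carries the retinol-RBP4 complex in blood and marks choroid plexus, had -0.74 in both mutants compared with wild type 2 and -0.45 to 0.022 in the others, with a fitted ratio of -0.34, or -0.086 and -0.081 with arrays not centred and with Gapdh centring.

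Other receptors and coregulators lay above 0 in 9 of 11 tested probes, against 51.3% of all probes, with a median of 0.058. Fabp5, which carries retinoic acid to another nuclear receptor, had a fitted ratio of -0.31 and was below 0 on 6 of 6 arrays, with -0.65 in mutant 3 and -0.69 in mutant 7 against -0.26 to -0.022 in the others. Its ratio was -0.20 without either of mutants 3 and 7. It was -0.053 with arrays not centred, where mutants 5, 6 and 4 lay above 0, and -0.048 with Gapdh centring. The coactivator gene Ncoa3 lay at 0.58 with a standard error of 0.37, from -0.32 to 1.77, and at 0.25 without mutant 7. The corepressor gene Nrip1 lay at 0.14 (0.072 without mutant 7, 0.083 without mutant 5), and Ep300, which encodes a histone acetyltransferase, at 0.15 (0.053 without mutant 7, 0.073 without mutant 3, 0.25 without mutant 4). Target genes lay above 0 in 7 of 17 tested probes, against 51.3% of all probes, with a median of -0.060 that includes the probes of Rarb and Crabp2. This median turned positive with values on all 6 arrays and without small whole-number ratios, as given below. Hoxb5, a Hox gene of the hindbrain and spinal cord, lay at 0.15 (5 of 6 arrays above 0). Dhrs3, which turns retinal back to retinol and is induced by retinoic acid, had -0.018, -0.040 and -0.11 in the Cy5 arrays against 0.24, 0.37 and 0.32 in the Cy3 arrays, with a fitted ratio of 0.13. Its orientation was opposite to that of the 4 receptor probes whose orientations did not overlap. Cyp26a1 had 1.27, 0.44 and -0.50 in mutants 5, 6 and 1 and no other value, and was not tested.

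Markers of tissues that make retinoic acid, and of choroid plexus, red blood cells and cortex, were measured beside these genes. Their part in the values above was not tested. The 21 probes of meninges and cranial mesenchyme averaged -0.16, 0.27 and 0.095 in mutants 3, 5 and 6 and -0.25, -0.27 and 0.49 in mutants 1, 4 and 7, with 12 above and 9 below 0. In mutant 7, where Aldh1a2 was lowest (-0.51), the mean of this list was its highest (median 0.13). In mutant 3, where Aldh1a2 was next lowest (-0.46), the mean of this list was -0.16 (median -0.035). The nasal list averaged 0.46, 0.50 and 0.24 in the Cy5 arrays against -0.028, -0.042 and 0.023 in the Cy3 arrays, with 6 of 9 probes above 0, and its median in mutant 5 was 0.00050 beside the mean of 0.50. Ventral telencephalon genes (12 probes) averaged between -0.37 in mutant 7, where the median was 0.069, and 0.26, and eye and diencephalon genes (14 probes) between -0.12 and 0.63, highest in mutant 5 (median 0.21). The choroid plexus list (5 probes, Ttr among them) averaged -0.56 in both mutants compared with wild type 2 and between -0.059 and 0.23 elsewhere. Its medians in these mutants, 3 and 1, were -0.235 and -0.31, and the low values of Ttr there are part of the mean. The mean of red blood cell genes (7 probes, 6 below and 1 above 0) lay below 0 on all 6 arrays, between -0.33 and -0.13. Of these probes, 4 had an unadjusted p under 0.05 (limma), against 3.93% of all probes. Averaged over arrays the mean was -0.23, and all probes shift by 0.25 without centring and 0.26 with Gapdh centring on average. The 9 probes of cortical genes averaged 0.25 in mutant 3, with a median of 0.035 there, and between -0.060 and -0.014 in the others.

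**Figure D4:**
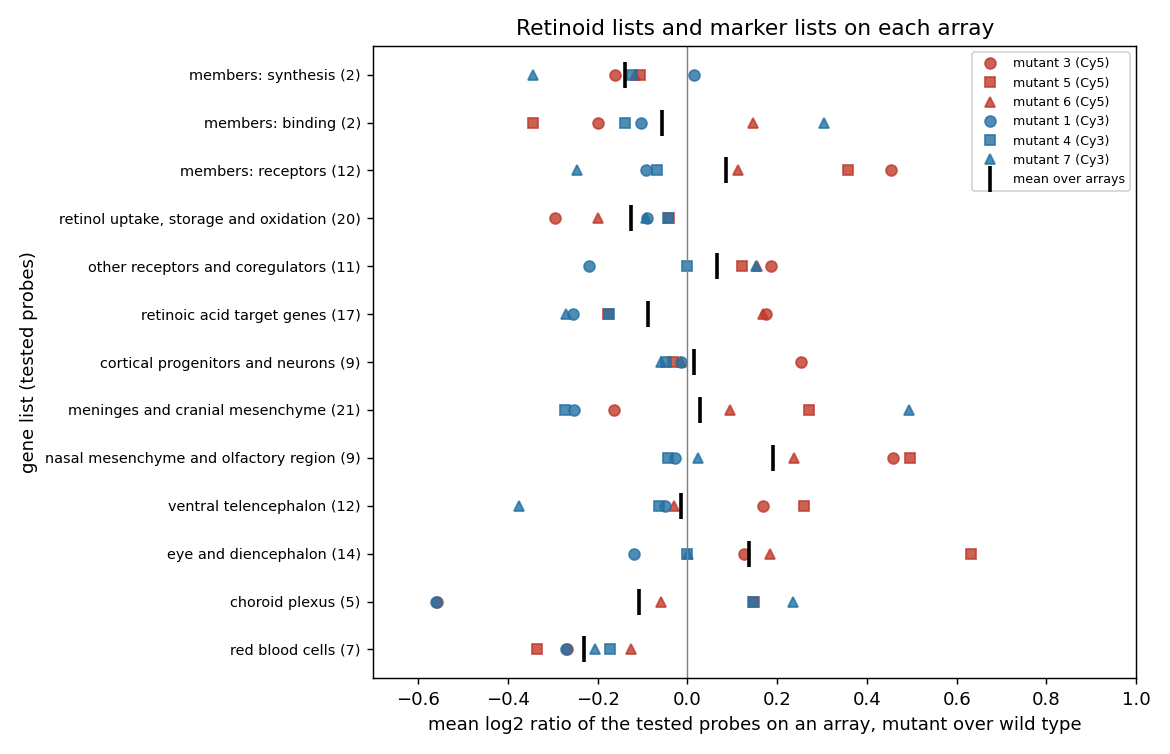
Mean log2 ratio of the tested probes of each list on each array (horizontal axis), in red with the mutant in Cy5 and in blue in Cy3, with the number of probes beside the name of the list and black bars for the mean over arrays. The same marker shape in both colours stands for the same wild-type cortex. The mean of the receptor list lies above 0 on the 3 Cy5 arrays and below 0 on the 3 Cy3 arrays, where its median, not drawn, is 0.016 to 0.041, while the mean of the list of retinol uptake, storage and oxidation lies between -0.30 and -0.042.

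The genes with the most similar pattern were found by the root mean square difference of the log2 ratio over 6 arrays, among 10942 probes with 1 other gene name and values on all arrays. Nearest to Aldh1a2 was Ppih (0.057), to Aldh1a3 Htra2 (0.062), to Crabp1 Bccip (0.089) and to Crabp2 Cks1b (0.045). Nearest to Rxra was Ss18 (0.036). For Rara CG_Mm_3000823_1, CG_Mm_3007061_1, CG_Mm_3007062_1 and CG_Mm_3007063_1 they were Mas1, Aldh18a1, Celsr3 and Ube2d3, with 0.045, 0.044, 0.043 and 0.24. For Rarb CG_Mm_3000826_1 and CG_Mm_3000828_1 they were Trpm1 (0.044) and Kcna6 (0.087). For Rarg CG_Mm_3001074_1, CG_Mm_3007100_1 and CG_Mm_3007101_1 they were Mdh2 (0.12), Scmh1 (0.041) and Bloc1s6os (0.20). The nearest probe to each differed from gene to gene, also between probes of the same receptor.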

How the data were processed

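The values are log2 ratios of the 2 channels of each array, as deposited. The labels' protocols give RNA extraction with Trizol. How the arrays were scanned and normalized, and the scale, centring and direction of the deposited log2 ratios, is not stated in the labels used here. Cy5 over Cy3 on a log2 scale was inferred from the ceiling at 16.61 and from Mest. Median deposited values were 0.26, 0.76, 0.19, -0.0040, -0.59 and 0.28 on arrays 1 to 6 (mutants 3, 5, 6, 1, 4 and 7). Values at the ceiling (590) were treated as missing and 232 Gapdh control spots were left out. Ratios were turned to mutant over wild type, centred on the array median and fitted by lmFit and eBayes (limma 3.58.1, R 4.3.3) with a dye term and the wild-type cortex as a random block (consensus correlation 0.25). Without signal levels, dim or saturated spots could not be recognised directly, and the number of arrays limits the precision. An alternative left out the 1084 tested probes with at least 2 deposited values equal to the log2 of a ratio of small whole numbers. P-values, standard errors and intervals of the fit rest on the spread between these arrays. The variance of each probe is moderated towards that of all tested probes. Gene names came from the platform's annotation and loci from RefSeq (GRCm38.p6), where the identifiers of all 9 genes matched. On 2 simulated data sets with 17476 probes, 100 probes were changed by 1 and 100 by 2 on the log2 scale. Of these, 98% and 100% had the right sign, and on average 39.5 and 74.5 passed the adjusted threshold, as did 5.5 unchanged probes. How many pass depends on how many probes change, so these shares do not carry over to the data. There no probe passed, Mest at -1.59 included (limma, adjusted p = 0.60). Named were Mest, every probe of the 9 genes, up to 4 probes with the smallest p of each other pathway list and the gene nearest in pattern to each probe. Cyp26a1 and, among other observations, Adh1, Aldh1a1, Rbp7 and Dkk2 were named after their values were seen. The members and lists were chosen with earlier results of these data known. Alternatives covered centring, scaling, quantile normalization, the block, the dye term, missing values, the ceiling, robust moderation, small whole-number ratios, 1 value per gene, dye orientations and single arrays left out.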

Additional observations from a re-analysis of the deposited data

Results flagged for a closer look

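Rara probe CG_Mm_3007063_1 had a value of -2.58 in mutant 7, far below its 5 other values (-0.28 to 0.86). The mean of the cortical progenitor and neuron list was 0.25 in mutant 3, far above its other 5 values, while its median there was 0.035. Both gaps were large against the range of the 6 arrays by Dixon's test. It was applied to 43 probes and lists, of which chance alone would mark about 1 in 20. Rara probe CG_Mm_3007060_1 lay above 0 on both Cy5 arrays with a value and below 0 on both Cy3 arrays, with a difference of 1.89 between the means (limma, adjusted p of the dye term = 0.18). Dhrs3 lay below 0 on the 3 Cy5 arrays and above 0 on the 3 Cy3 arrays, with a difference of -0.36 (limma, adjusted p = 0.19). The receptor probes together had means above 0 on the Cy5 arrays and below 0 on the Cy3 arrays, with a difference of 0.44, but their medians lay above 0 on all 6 arrays. The 16 tested probes together had a difference of 0.31 between the means, and their medians lay above 0 on 5 of 6 arrays. For these 2 means the difference was not tested.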

How the results depend on the processing

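No probe on the array passed for genotype under any alternative run. The unadjusted p of Rxra, 0.053 in the main fit, was 0.028 without the dye term (limma). It was 0.037 without the block or with values on all 6 arrays, and 0.044 with the ceiling kept. With 1 value per gene it was 0.046, and without small whole-number ratios 0.047. The other median-centred alternatives gave 0.054 to 0.25. Others of the 16 probes fell under 0.05 with Gapdh centring or on part of the arrays. Arrays not centred and arrays centred on Gapdh control spots raised all ratios. Aldh1a2 moved to 0.059 and 0.065, Aldh1a3 to 0.17 and 0.17, Crabp2 to 0.12 and 0.13, Rarb CG_Mm_3000826_1 to 0.16 and 0.16, Rdh5 to 0.066 and 0.072 and Aldh1a7 to 0.058 and 0.064. List medians moved to 0.11 and 0.12 (synthesis), 0.20 and 0.20 (binding), 0.31 and 0.32 (receptors), 0.080 and 0.086 (retinol genes), 0.31 and 0.32 (coregulators) and 0.19 and 0.20 (targets).

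The Cy5 arrays alone gave -0.078 for Crabp1, -0.050 for Rara CG_Mm_3000823_1, 0.34 for Rara CG_Mm_3007063_1, -0.056 for Dhrs3 and a receptor median of 0.23. The Cy3 arrays alone gave -0.47 for Rara CG_Mm_3007060_1, -0.046 for Rarb CG_Mm_3000828_1, -0.20, -0.21 and -0.11 for Rarg CG_Mm_3001074_1, CG_Mm_3007101_1 and CG_Mm_3007102_1, and medians of -0.079 (receptors) and -0.12 (retinol genes). A block of its own for the wild type labelled 1 gave -0.0040 for Crabp1 and -0.0058 for Rarg CG_Mm_3001074_1, which scaling and quantile normalization took to -0.036 and -0.052. The target median was 0.027 with values on all 6 arrays and without small whole-number ratios.

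Leaving out 1 array at a time gave ranges of -0.090 to 0.12 for Crabp1, -0.00023 to 0.057 for Rara CG_Mm_3000823_1, -0.11 to 0.18 for Rarg CG_Mm_3001074_1 and -0.018 to 0.16 for CG_Mm_3007102_1. Medians ran from -0.17 to -0.099 (retinol genes, higher without mutant 3 or 7) and from -0.067 to 0.026 (targets, above 0 without mutant 3 or 1). The dye term passed for 47 probes of the array. It passed for 658 without centring, 18 with Gapdh centring, 176 with scaling, 150 with quantile normalization, 1 without the block, 135 with values on all 6 arrays, 2 with values on at least 2 arrays, 31 with the ceiling kept, 19 with 1 value per gene and 0 to 3 with 1 array left out. Of the probes described, 1 passed for the dye term without centring. The cause was not tested. Each ratio is already a difference between the mutant and the wild type of 1 array, and the shared wild type is a block in the model. The labels pair each mutant with the wild type on its array, and no further pairing was used.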

Other observations

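Among the retinol oxidation genes Adh1, an alcohol dehydrogenase that oxidises retinol, had -0.83, -1.41 and -0.48 in the Cy5 arrays against 1.08, 1.08 and 1.36 in the Cy3 arrays, so that its fitted ratio of 0.13 averages values of opposite sign. Aldh1a1, the third enzyme of retinoic acid synthesis, had -0.44 in mutant 6 and 1.09 and 0.98 in mutants 4 and 7 and was not tested for lack of values. Rbp7, a cellular retinol-binding protein gene, had 0.28 in mutant 6 and -2.92, -0.78 and -1.30 in mutants 1, 4 and 7. The narrowest range over the 6 arrays of any tested probe with 6 values was 0.065, for the Wnt regulator gene Dkk2, at a fitted ratio of 0.14 and above 0 on 6 of 6 arrays.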
